A study of Homo sapiens with 24 samples.

Results

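Transcripts of 10 genes for proteins that the liver secretes into the blood were examined for N6-methyladenosine (m6A) peaks: ALB, AFP, TTR, APOA1, APOA2, APOB, SERPINA1, FGA, FGB and FGG. A peak was a member when its gene field held the Ensembl identifier of one of these genes, which gave 100 of the 228472 peaks deposited for 6 cell populations. All 100 lay on the strand of their gene, and none was shared with another gene. The populations were derived from the MEL1 INSGFP/W line, human embryonic stem cells with a GFP reporter at the insulin locus that all 6 share. In batch 1, the 4 stages were undifferentiated hPSCs, the endoderm they first form (DE), progenitors of the pancreas (PP) and organoids resembling islets (hILO), profiled from mRNA with the SYSY m6A antibody. In batch 2, pancreatic progenitors of wild-type cells (WT PP) and of cells with a knockout of ALKBH5, an m6A demethylase (A5-KO PP), were profiled from total RNA with an m6A antibody from Millipore, with rRNA depleted from the input and a SMARTer total RNA library kit. The knockout was made in hPSCs with CRISPR-Cpf1, and the labels did not give the clone. Each population had 2 immunoprecipitated (IP) and 2 input libraries, 24 in all, and 1 peak list for all of them together, so no spread between replicates was available and no difference between populations was tested. Batch and experiment coincided, so a difference between the 4 stages and the batch 2 populations cannot be told apart from antibody, RNA fraction and library kit.

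Input reads in all peaks of a list numbered 6987612 (PP) to 28463998 (hILO), and IP reads 30723097 (DE) to 79822815 (hPSC). RPM below are reads in the named peaks for each 1000000 reads in all peaks of the list, and intervals cover counting error only. Of the peaks of WT PP 11.5% had no input read, as had 24.6% of those of A5-KO PP and at most 0.183% in a stage. ALKBH5 peaks held 289 input and 836 IP reads in WT PP but 1 input and 592 IP reads in A5-KO PP, against 382 to 2753 input reads in the stages. Of 7 pancreatic progenitor markers, 6 carried a peak in each of PP, WT PP and A5-KO PP, while of 5 pluripotency markers 1 carried a peak in PP and WT PP (DPPA4, with 13 and 904 input reads) and 2 in A5-KO PP (DPPA4, 534, and TDGF1, 285). The hILO list had peaks on 7 of 8 endocrine markers, INS, GCG and SST among them, and also on 5 of 8 intestinal markers.

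Plasma proteins are made mainly by hepatocytes, which arise from the same foregut endoderm as the pancreas, and several of them are also made by yolk sac and intestinal epithelium. Albumin and its fetal counterpart alpha-fetoprotein are carriers, transthyretin carries thyroid hormone and the retinol-binding protein complex, apolipoproteins A1, A2 and B build lipoprotein particles, SERPINA1 encodes the protease inhibitor alpha-1-antitrypsin, and FGA, FGB and FGG encode the chains of fibrinogen, the clotting precursor. m6A is placed on nascent mRNA mostly within DRACH motifs, 5 bases with the methylated A followed by C at their core (any base but C first, a purine second, any base but G last), and m6A-seq reads it as a pile of IP fragments above the input fragments of the same transcript. A peak can be called only where a transcript is present, and a transcript without a peak has no value in these files, which is not the same as a level of 0. In bulk cultures a larger share of cells with a transcript and more transcript per cell cannot be told apart.

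The stretches that the comparisons below turn on are shown first, read from GRCh38 on the transcript strand, 5′ to 3′, with DRACH and GGAC motifs in capitals. The peak with which ALB appeared in hILO covered the 3′ end of its reading frame, and its coding part, 178 of 275 nt, lay within chr4:73419507-73420298 (plus strand).
ALB: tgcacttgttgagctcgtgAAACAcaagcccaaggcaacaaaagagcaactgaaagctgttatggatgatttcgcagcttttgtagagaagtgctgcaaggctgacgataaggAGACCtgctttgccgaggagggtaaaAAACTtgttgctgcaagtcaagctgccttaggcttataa
The longer of the APOA1 peaks of DE, the first member peaks of the series, was coding and lay in exon 4 at chr11:116836126-116836275 (minus strand).
APOA1: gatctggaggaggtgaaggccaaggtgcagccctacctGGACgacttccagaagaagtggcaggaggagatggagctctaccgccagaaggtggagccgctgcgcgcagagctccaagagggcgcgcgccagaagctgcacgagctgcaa
The deepest APOB peak, found in hILO alone, was coding and lay in exon 9 at chr2:21033348-21033472 (minus strand).
APOB: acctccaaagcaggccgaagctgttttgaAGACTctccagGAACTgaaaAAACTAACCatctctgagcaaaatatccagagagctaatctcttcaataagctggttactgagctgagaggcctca
The FGB stretch at chr4:154569284-154569664 (plus strand, 175 exonic nt) was called with the same ends in WT PP and A5-KO PP and lay within a hILO peak.
FGB: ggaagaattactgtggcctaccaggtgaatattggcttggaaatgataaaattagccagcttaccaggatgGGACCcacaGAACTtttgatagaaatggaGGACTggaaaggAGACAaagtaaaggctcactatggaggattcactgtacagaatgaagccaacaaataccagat
Of the untranslated regions, short windows around 1 motif are given. They come from the only member peak of PP, on APOB (chr2:21001525-21001549, minus strand), from the FGG peak called with the same ends in WT PP and A5-KO PP (chr4:154604253-154604276, minus strand), from the AFP peak of both these lists (chr4:73436233-73436257, plus strand) and from the TTR peak of WT PP (chr18:31598784-31598808, plus strand).
APOB window: gaaggtctctGAACTcagaaggatg
FGG window: ttttcctattGGACaatggacttg
AFP window: ccactgccaaTAACAaaataactag
TTR window: gtccaggcagAGACAataaaacatt
The ALB stretch held 3 DRACH sites and no GGAC, the APOB stretch 4 and none, and the FGB stretch 4 and 2. The APOA1 stretch held 1 GGAC, which is followed by G and is therefore not a DRACH site, and no DRACH, although 96.7% of the DE peaks of its length held one. Only the motif at the centre of a window is in capitals, and the FGG window holds a second GGAC in lower case.

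The genes gained peaks late in the differentiation series. No member carried a peak in hPSC, where 60.2% of 20046 coding genes did. DE had 3 peaks on 2 members, APOA1 and APOA2, against 57% of coding genes, and PP had 1 peak on 1 member, APOB, against 52.2%. The hILO list had 39 peaks on all 10 members, against 57.7% of coding genes. At an IP to input ratio of at least 3, 5 members had a hILO peak and 1 a DE peak, against 7 in A5-KO PP and 8 in WT PP. Enrichment has a scale of its own in each list. Its median over all peaks was 1.53 (hILO), 1.72 (DE), 4.31 (A5-KO PP) and 3.65 (WT PP) on the log2 scale. The share of all coding genes at this ratio was not computed, so these counts do not rank the lists. ALB, AFP, TTR, SERPINA1, FGA, FGB and FGG had a peak in hILO and in none of the earlier stages, a pattern that 3.62% of coding genes showed. In batch 2, WT PP had 32 peaks on 9 members, with ALB missing, against 62.8% of coding genes. A5-KO PP followed with 25 peaks on 7 members, with ALB, APOA1 and APOA2 missing, against 69.7%. A peak in WT PP but none in PP was found for 8 members, every one except ALB and APOB, and for 15.2% of coding genes. PP and WT PP carry the same cell type label but lie in different batches, so culture and method cannot be told apart in this comparison.

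**Figure D1:**
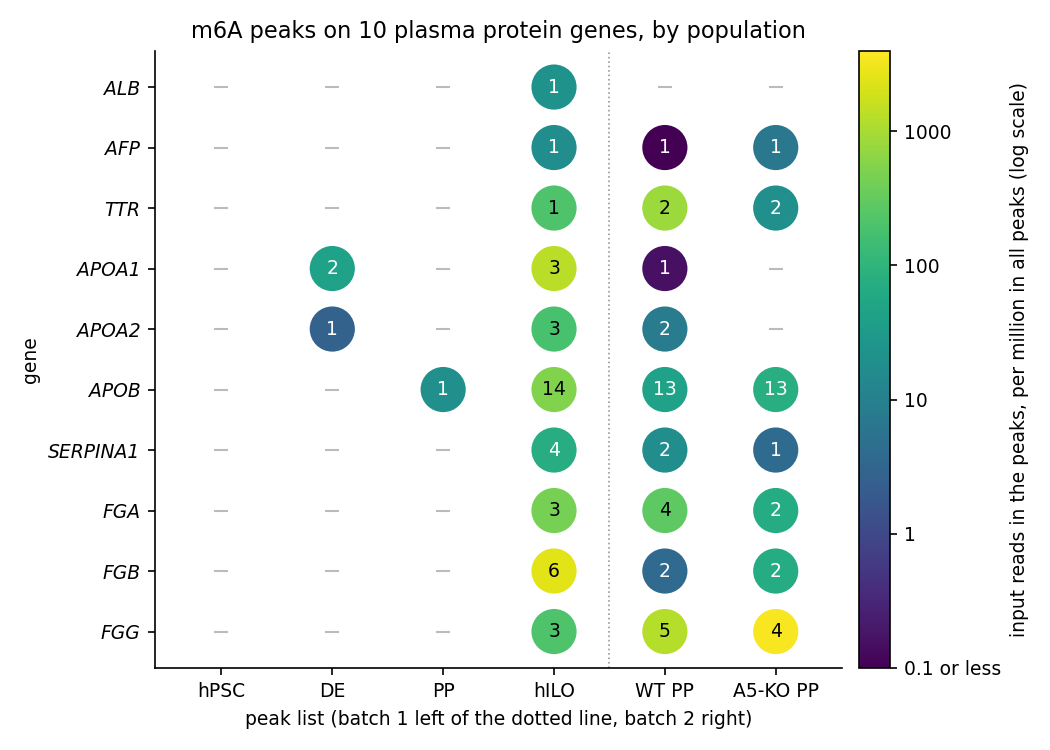
Number of m6A peaks (figure in each circle) on each gene (vertical) in each peak list (horizontal), coloured by input RPM in those peaks on a log scale, with values of 0.1 or less in the darkest colour and a dash where no peak was called. The 39 hILO peaks cover all 10 genes, whereas hPSC has none and PP has 1.

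Summed input reads were lowest in PP among the lists with a member peak, and the length under peaks also differed. From DE over PP and hILO to WT PP and A5-KO PP they numbered 601, 139, 156391, 46307 and 48966, or 47.7, 19.9, 5494, 2433 and 3851 RPM. The hILO value was higher than that of PP by 8.10 on the log2 scale, but over 13425 against 50 exonic nt of peak. Per kb of peak the values were 119 (DE), 398 (PP), 409 (hILO), 222 (WT PP) and 372 RPM (A5-KO PP). The PP value is that of 1 APOB peak and the others pool different genes, so these values give no order of the lists. At the 1 peak shared by both lists, in the APOB 3′UTR, input reads were 139 in the 50 nt of PP and 789 in the 450 nt of hILO. A few short stretches held most of the reads. The 2 deepest peaks held 55.0% of the member input in hILO (FGB and APOA1, 450 nt together), 56.5% in WT PP (TTR and FGG, 125 nt) and 93.2% in A5-KO PP (both on FGG, 150 nt). The sum over members thus described a few peaks, and each gene is therefore described on its own.

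Among the carriers, ALB had the narrowest distribution. Its single peak lay in hILO, with 611 input reads (95% Poisson interval 564 to 661), 921 IP reads and a log2 enrichment of 1.09, and spanned the last coding exons. AFP had 1 peak over its 5′ end in hILO, WT PP and A5-KO PP. It held 510 input and 1476 IP reads in hILO, 0 input and 30 IP reads in WT PP, and 88 input and 207 IP reads in A5-KO PP. The log2 enrichment of AFP was 2.10, 0.77 and 4.74 in the same order, and the WT PP value rests on no input read at all.

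TTR was covered in the same 3 lists. In hILO its 1 peak at the 5′ end held 5868 input and 9078 IP reads. In WT PP a 50 nt peak that joins an upstream exon to the first exon of the MANE Select isoform, the reference transcript of the gene, held 14989 input reads but 3329 IP reads, and a 75 nt peak at the 3′ end, shown above, held 686 input and 4745 IP reads with a log2 enrichment of 5.61. In A5-KO PP the peak at this junction held 100 input and 54 IP reads, and the 3′ peak was not called. A second A5-KO PP peak, with 150 input and 100 IP reads, lay further upstream, outside that isoform. The first WT PP peak and both A5-KO PP peaks were listed as enriched, by 0.73, 1.32 and 1.76 on the log2 scale, although their deposited IP counts were below their input counts. The deposited enrichment is a fitted value on a scale of its own for each list and not the ratio of the deposited counts.

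APOA1 and APOA2, the proteins of high density lipoprotein, were the members found earliest. In DE, APOA1 had peaks of 412 and 155 input reads with 995 and 341 IP reads, and APOA2 had 1 peak of 34 input and 131 IP reads. All 3 were coding and all 3 were covered by hILO peaks, where the corresponding input reads numbered 20702, 17574 and 564. The log2 ratio of input RPM, DE over hILO, was −4.47, −5.64 and −2.84, with DE peaks of 150, 50 and 200 nt against hILO peaks of 250 nt each. The log2 enrichment of the paired peaks was 1.21 and 0.95 for the longer APOA1 peak, 1.09 and 1.19 for the shorter and 2.09 and 1.55 for APOA2, in DE and hILO. The enrichment values of DE and hILO thus lay within 0.54 of each other while the input reads differed manyfold. In WT PP, APOA1 had 1 peak with 3 input and 111 IP reads. APOA2 had 2 WT PP peaks, of which one with 150 input and 1041 IP reads lay outside the coding isoform and the other had 1 input and 23 IP reads. A5-KO PP had no peak on either gene.

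APOB, the large structural protein of low density lipoproteins, supplied 41 of the 100 peaks. Its mRNA is 14121 nt long, 13692 nt of it coding, and 7572 nt form the single exon 26. PP carried 1 peak of 50 nt in the 3′UTR, with 139 input and 583 IP reads and a log2 enrichment of 1.80. The peaks numbered 14 in hILO and 13 in each of WT PP and A5-KO PP, and in each of these lists 9 lay in exon 26. They covered 52.6%, 52.1% and 53.1% of the mRNA in the same order, over 7425, 7350 and 7500 nt, so that the covered length was nearly equal. The hILO list alone had a peak upstream of nt 3922 of the mRNA, the 125 nt stretch of exon 9 shown above, which held 9435 of its 15132 APOB input reads.

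**Figure D2:**
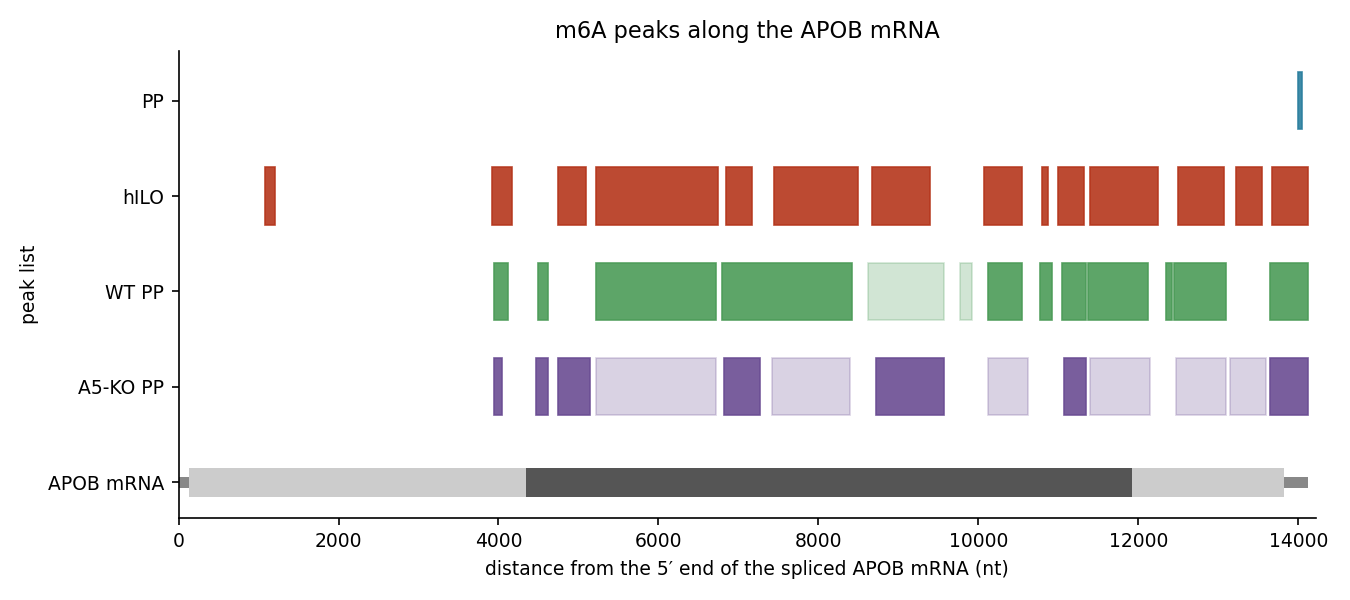
Position of each APOB peak along the spliced mRNA (horizontal, nt from the 5′ end) in the 4 lists that have one, with pale bars for peaks without an input read and, at the bottom, the coding sequence in grey and exon 26 in dark grey. Between 5222 and 14121 nt the hILO, WT PP and A5-KO PP peaks cover much the same stretches, and 6 of 13 A5-KO PP peaks are pale.

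The reads behind the APOB peaks differed far more than their positions. From hILO over WT PP to A5-KO PP, APOB input reads numbered 15132, 854 and 988, and IP reads 40755, 6703 and 2039. No input read lay under 2 of the 13 WT PP peaks and 6 of the 13 A5-KO PP peaks, while every hILO peak of APOB had some. The log2 enrichment of APOB peaks ran from 0.84 to 2.26 in hILO, from 0.59 to 12.07 in WT PP and from 2.13 to 12.89 in A5-KO PP, and the 8 peaks without input held the highest values of WT PP (10.32 and 12.07) and A5-KO PP (9.41 to 12.89).

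SERPINA1, the gene of alpha-1-antitrypsin, had 4 peaks in hILO with 2054 input reads, 2 in WT PP with 340 and 1 in A5-KO PP with 50. Of the hILO peaks, 2 lay in the 3′UTR, 1 in the coding sequence and 1 outside the coding isoform. The largest, in the 3′UTR, held 1112 input and 2464 IP reads. None of them was at the coding stretch found in both batch 2 lists, where WT PP had 270 input and 595 IP reads and A5-KO PP 50 and 346.

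The fibrinogen genes lie side by side on chromosome 4, and all 3 had peaks in hILO, WT PP and A5-KO PP. FGA had 3, 4 and 2 peaks with 12601, 5572 and 862 input reads. Its deepest peak was a 150 nt coding stretch of the last exon in hILO (10800 input and 15813 IP reads) and a 50 nt stretch at a splice junction in WT PP (4172 and 12901). FGB had 6, 2 and 2 peaks with 70077, 71 and 874 input reads. A single 200 nt hILO peak over the first exons of FGB held 65377 input and 147697 IP reads, 41.8% of all member input of that list. FGG had 3, 5 and 4 peaks with 5872, 23641 and 45854 input reads. The FGG reads of hILO lay mainly at the 5′ end (4207 input reads), those of WT PP at the 3′ end (11190, 7976 and 4276), and those of A5-KO PP in a 3′UTR peak (17896) and a 50 nt peak outside the coding isoform (27756 input but 10518 IP reads). By summed input reads FGB thus led the fibrinogen genes in hILO and FGG in both batch 2 lists.

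Per kb of peak, the input level in hILO was highest for APOA1 (2346 RPM), followed by FGB (1448), TTR (916), FGG (344), FGA (334), APOA2 (296), SERPINA1 (152), AFP (89.6), ALB (78.1) and APOB (71.6). In WT PP, TTR (6588) and FGG (2760) were followed by FGA (177) and SERPINA1 (47.6), and the other 5 genes with a peak lay between 0 (AFP) and 28.8 (APOA2). In A5-KO PP, FGG (7212) stood far above FGB (137), TTR (78.6), FGA (57.7), AFP (55.4), SERPINA1 (13.1) and APOB (10.4). The gene with the highest level thus differed between the 3 lists, and these levels have no replicate check. Density within a gene was as uneven, from 11.6 to 7548 input reads per 100 nt among the APOB peaks of hILO, from 171 to 32689 among those of FGB in hILO, and from 42.9 to 55512 among those of FGG in A5-KO PP.

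The enrichment of the member peaks spread over the range of their lists. The median log2 enrichment was 1.56 over 39 member peaks in hILO against 1.53 over all its peaks, 4.60 over 32 peaks against 3.65 in WT PP and 4.29 over 25 peaks against 4.31 in A5-KO PP. Above the list's median lay 22 of 39 member peaks in hILO, 20 of 32 in WT PP and, for A5-KO PP, 12 of 25. The lists were scaled separately, and scaling and batch cannot be told apart in the higher values of batch 2. The median length of member peaks was 250 nt in hILO and 300 in A5-KO PP, above the 175 of all peaks in either list, but 150 in DE, 50 in PP and 162.5 in WT PP, below the 175 of all peaks. No input read was found under 9.38% (WT PP) and 24.0% (A5-KO PP) of the member peaks, close to the shares of all peaks.

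To describe how these transcripts differed between pancreatic progenitors with and without ALKBH5, A5-KO PP was compared with WT PP within batch 2. At the peaks shared by both lists, input reads of FGB and AFP were higher in A5-KO PP and those of TTR and SERPINA1 lower, while FGA, FGG and APOB had shared peaks that moved either way. Over its shared peaks, which were all its peaks, FGB was higher in A5-KO PP by 4.19 on the log2 scale of input RPM (71 reads in WT PP, 874 in A5-KO PP). AFP had 0 reads in WT PP against 88 in A5-KO PP at the same 125 nt, which is at least 43.9-fold higher in RPM against a floor of 3 reads. Over shared peaks the log2 difference was −6.63 for TTR (14989 and 100 reads), −1.83 for SERPINA1 (270 and 50), −0.09 for FGA (1378 and 862), 0.49 for FGG (19166 and 18023) and 0.96 for APOB (634 and 827). Over all peaks of each gene, called separately in the 2 lists, it was −5.38 for TTR, −2.16 for SERPINA1, −2.11 for FGA, 1.54 for FGG and 0.79 for APOB. The values of FGA and FGG thus rested on peaks called in 1 list alone, the FGA peak of 4172 reads in WT PP and the FGG peak of 27756 reads in A5-KO PP. With a stricter peak p-value, under 1e-05 in both lists, 10 of the 20 shared peaks remained, 5 on APOB, 2 on FGG and 1 each on SERPINA1, FGA and FGB. The AFP and TTR comparisons were lost there, through the WT PP peak of AFP and the peaks of TTR in either list. Differences of 1 or more over all peaks were common among genes at large, where 28.9% of 11568 coding genes with peaks in both lists were higher in A5-KO PP and 32.6% were lower. ALB, a common marker of hepatocytes, had no peak in either list and could not be compared, and APOA1 and APOA2 had peaks in WT PP alone. Summed over the 10 members, the input was higher in A5-KO PP by 0.66 on the log2 scale. The sum was −2.28 without FGG, −0.71 without FGG and TTR, and −0.23 over shared peaks alone, so its sign rested on the FGG peaks.

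At the level of single peaks, 20 of the 25 A5-KO PP peaks were covered over more than 50% of their exonic length by WT PP peaks (80%, against 46.8% of all A5-KO PP peaks). They comprised 11 on APOB, 2 each on FGA, FGB and FGG, and 1 each on AFP, TTR and SERPINA1, and 2 of the APOB peaks paired with the same WT PP peak. Reads moved in both directions, often within one gene. Both FGB peaks had more reads in A5-KO PP, with input reads of 67 in WT PP against 670 in A5-KO PP at the stretch shown above and of 4 and 204 at the next. Their IP reads moved alike, from 242 to 1949 and from 35 to 908. On FGA, a peak outside the MANE Select isoform (chr4:154584528-154584752) had 61 input reads in WT PP against 522 in A5-KO PP, whereas the larger peak on the last exon of that isoform had 1317 and 340. FGG had 7976 input reads in WT PP against 127 in A5-KO PP at the 3′UTR peak with the window above, and 11190 and 17896 at the next. On APOB, the 3′UTR peak had 298 input and 2726 IP reads in WT PP against 69 and 60 in A5-KO PP. Input RPM were higher in A5-KO PP by 1 or more on the log2 scale at 9 of the 20 shared peaks and lower at 10, against 32.6% and 38.5% of all shared peaks. IP RPM were higher by that measure at 9 and lower at 9, against 31.2% and 30.2%.

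**Figure D3:**
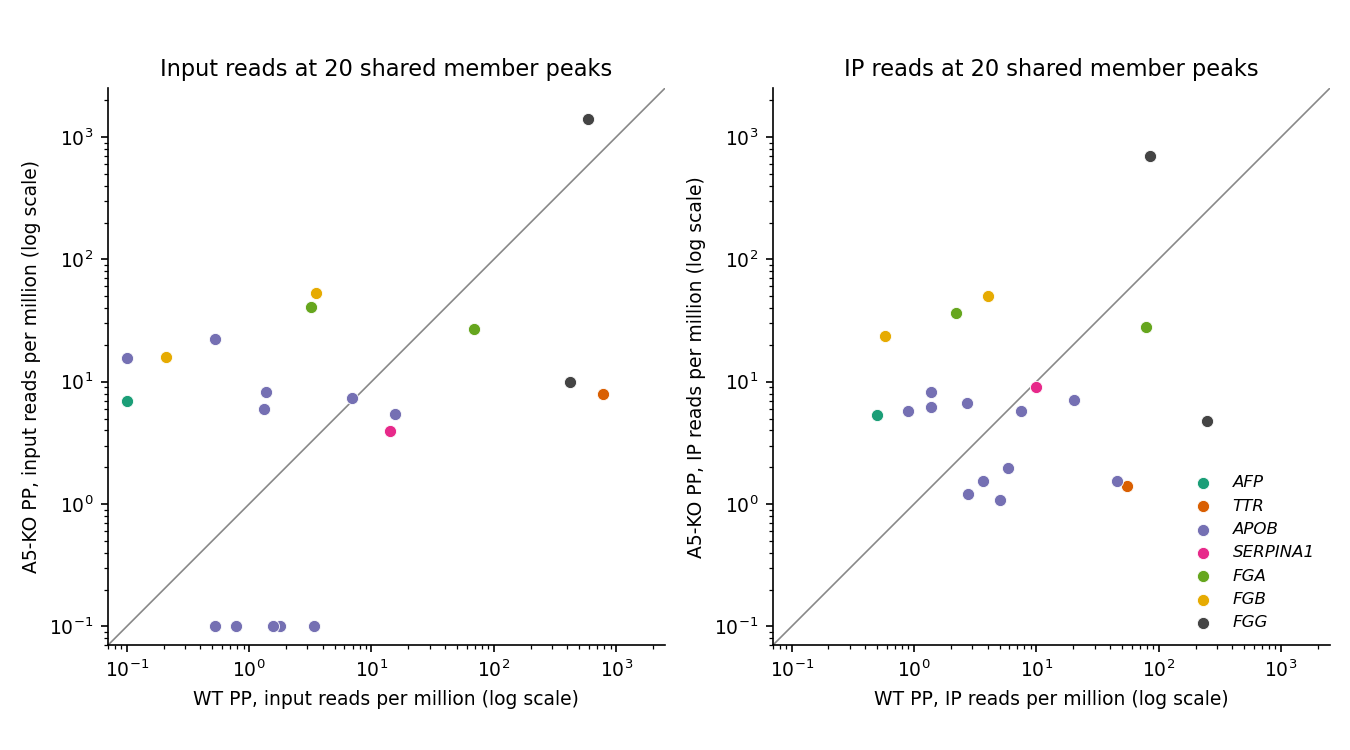
Input RPM (left) and IP RPM (right) at the 20 shared peaks in WT PP (horizontal) and A5-KO PP (vertical), log scales, coloured by gene, with 0 drawn at 0.1 and a line of equality. Points lie on both sides of the line in both panels, with FGB and AFP above it, TTR below it and FGG on both sides.

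The log2 enrichment at the shared peaks was higher in A5-KO PP by a median of 1.70, against 0.25 over all 25834 shared peaks. It was higher by at least 1 at 11 peaks and lower by at least 1 at 5, against 38.2% and 28.8% of all shared peaks. The median difference was 1.41 over the 9 peaks outside APOB. Input reads were missing from 5 of the 20 peaks in A5-KO PP, all on APOB, and from 2 in WT PP, on AFP and APOB. At 4 of the 5 former, IP reads also were fewer in A5-KO PP (42 to 76, against 165 to 354 in WT PP), yet their log2 enrichment was higher by 3.36 to 5.98. Both lists had 50 or more input reads at 9 of the peaks, of which 3 were higher and 2 lower, with a median difference of −0.04, against 22.9% and 21.4% of the 9248 peaks of that depth and a median of 0.01. The 3 that were higher lay on FGG (2.00, counting error 0.03), SERPINA1 (2.03, 0.24) and FGA (1.41, 0.23), and the 2 that were lower on APOB (−4.10, 0.27, and −1.55, 0.22). The FGB stretch shown above had log2 enrichments of 4.69 (WT PP) and 4.62 (A5-KO PP), a difference of −0.06 within its counting error of 0.21, while its input reads differed manyfold. The FGG peak with the window above differed by −0.15 (counting error 0.17) and the large FGA peak by −0.04 (0.10). Counting errors do not include the spread between cultures, and the part of input depth in these differences was not tested.

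The member peaks of batch 2 lay mostly where hILO had them. Of the A5-KO PP member peaks, 80% were covered by hILO peaks, and of those of WT PP 59.4%, against 24.8% and 27.4% of all peaks of these lists. All 10 members had a hILO peak, against 57.7% of coding genes. The shares over all peaks also count genes without a hILO peak, so they are not a like baseline. Of the 39 hILO member peaks, 48.7% were covered by WT PP peaks and 43.6% by A5-KO PP peaks, near the shares over all hILO peaks (50.3% and 48.9%). Between hILO and PP, only APOB had peaks in both lists. Its log2 ratio of input RPM, hILO over PP, was 4.73 over all its peaks and −2.48 per nt of peak. Among all coding genes with peaks in both, 24.3% were higher in hILO by 1 or more and 37% were lower.

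Most member peaks lay in coding sequence. Of 94 peaks placed on the longest coding isoform by their midpoint, 77.7% were in the CDS (Wilson 95% interval 68.2% to 84.9%), 17.0% in the 3′UTR and 5.32% in the 5′UTR, against 53%, 41% and 5.97% of all placed peaks. Without APOB, whose mRNA is almost wholly coding, 67.9% of 53 peaks were in the CDS (54.5% to 78.9%). The other member mRNAs are also mainly coding, such as APOA1 (804 of 899 nt) and FGA (1935 of 2209). Exceptions are SERPINA1 (1257 of 3006) and FGB (1476 of 3641). The shares were not set against coding length, so a preference for coding sequence was not tested. Peaks of 1 gene share a transcript and are not independent, so these intervals are too narrow. The CDS share was 73.0% in hILO, 82.8% in WT PP and, for A5-KO PP, 79.2%. A DRACH site occurred in 92 of the 100 member peaks and in 90.8% of all peaks, and a GGAC in 54 and in 55.0%. Member peaks held 25.8 DRACH sites per kb and all peaks 22.0.

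Genes outside the 10 were followed by fixed lists. Of 20 other plasma protein genes, 3 had a peak in hPSC, 5 in each of DE and PP, 8 in hILO, and 11 and 12 in the WT and A5-KO progenitors. This list was thus not absent from the early stages, through APOE, APOC1 and TF in hPSC. APOE and APOC1, neighbouring apolipoprotein genes whose peaks largely share their reads, had the most input reads of these 20 genes in all 6 populations, and APOE held 41967 input reads in WT PP against 3405 in A5-KO PP. SERPIND1, which encodes a thrombin inhibitor, held 668 and 2459, and TF, the gene of the iron carrier transferrin, 8031 and 358. Of 15 genes for hepatocyte enzymes and receptors, 2, 3, 2, 8, 5 and 9 had a peak in the same order of lists. Both lists of genes lay below the share of all coding genes with a peak, given above, in each of the 6 populations. The hepatocyte genes differed in both directions between WT PP and A5-KO PP. CYP3A7, a fetal liver cytochrome P450 with 25 and 43 input reads in hPSC and DE, had no peak in WT PP and 2394 input and 13954 IP reads in A5-KO PP, and CPS1, a urea cycle enzyme, had none in WT PP and 538 input reads in A5-KO PP. MTTP, which loads lipid onto APOB, held 302 input and 1300 IP reads in WT PP against 130 and 151, and TAT, tyrosine aminotransferase, had 86 input reads in WT PP and no peak in A5-KO PP. Of 10 hepatic transcription factor genes, many of which also act in the pancreas, 5, 3, 9, 9, 7 and 9 had a peak. HNF4A, a regulator of both lineages, had no peak in hPSC and 6.35, 111, 45.4, 104 and 313 input RPM in the other lists.

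Markers of other cell types varied beside the members. Intestinal markers had a peak for 0, 0, 3, 5, 3 and 6 of 8 genes in hPSC, DE, PP, hILO, WT PP and A5-KO PP, with 0 to 806 input RPM in their summed peaks. The intestinal sum was 52.2 RPM in PP, 205 for the wild type of batch 2 and 191 for its knockout. Mesenchymal markers had one for 2, 2, 4, 3, 3 and 5 of 6 genes. Their sum was 21.1 RPM in WT PP against 183 for A5-KO PP, and without LUM, which held 136 RPM in 1 A5-KO PP peak, it was 17.5 and 47.7. Pancreatic progenitor markers held 2049 RPM in PP, 738 in hILO, and 1347 and 1081 in the wild type and knockout of batch 2, of which 303 and 332 were left without SOX9. Intestinal epithelium also makes several apolipoproteins, and the part of such cells in the apolipoprotein reads was not tested.

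The genes most like the member sum over the 6 lists, by Pearson correlation of log2 input RPM among 11455 genes, were TTC6 (r = 0.987), MCF2L (0.984), ACOT13 (0.977), TLCD4 (0.973) and COMMD4 (0.972). With 6 points that share their library totals, such values describe levels that were lower in hPSC, DE and PP than in the other 3 lists, by very different amounts. TTC6, for instance, had 0, 8.81, 3.01, 98.7, 48.3 and 152 input RPM, but MCF2L had 24.8, 35.5, 34.3, 49.6, 53.4 and 55.8.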

How the data were processed

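m6A-seq of 24 libraries was deposited as 1 peak list per population. The authors used fastp for trimming, HISAT2 for alignment to GRCh38 and exomePeak2 for peak calling. Deposited values per peak were the read counts of input and IP pooled over the libraries of a group (as sums or means, not stated), a log2 enrichment of IP over input, and p-values raw and adjusted. The deposited peaks had an IP to input ratio of at least 1.5 by that fit and an adjusted p-value below 0.05, although the methods name p below 1e-05.

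Spans were reduced to the exons of their gene in GENCODE 44. Peaks were shared when more than 50% of the exonic length lay under peaks of the other list on that strand. Log2 ratios of counts used a pseudocount of 1, and counting errors added 0.5 to each count. Motifs were searched on the transcript strand. PCR copies are not independent molecules. The overlap and placement steps were tested on made intervals. Pairing was tested on a sample of A5-KO PP peaks against copies with the same coordinates and partly shifted enrichment. That does not test the overlap threshold on peaks of unlike extent. Python 3.11.15, numpy 2.4.6, pandas 2.3.3, scipy 1.17.1 and matplotlib 3.10.9 were used.

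Named genes were the 10 members, the 5 genes most like them with at least 1000 input reads in all, and listed genes among the 3 with most input reads in 1 population. ALKBH5, the gene knocked out, and GCG were named outside this rule. The members and lists were chosen with earlier results of these data known. Alternatives covered thresholds, denominators, overlap, isoform and motif. The values of 1 gene of the hepatocyte enzyme list are not reported here.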

Additional observations from a re-analysis of the deposited data

How the results depend on the processing

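No paired analysis was possible because each list pools the libraries of its group and holds no value per library, so leaving out a replicate was not run either. Of 95 alternative values for 25 results, 51 stayed within tolerance (counts within 1.5 times, other values within their counting error), 38 moved further and 6 turned the sign. Shared peaks of single genes, leaving out members, their deepest peaks or peaks without input, the MANE Select isoform and IP reads were alternatives added once the data had been seen. For these changes the cause was not tested, except where fewer peaks or reads enter by construction. Values per kb were judged against the interval of plain RPM, and the GGAC share against that of DRACH. Smaller denominators can only raise RPM. The tally thus includes moves fixed by construction and is no measure of robustness.

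At IP/input of at least 3, members with a peak numbered 1 in DE and 5 in hILO, and at p below 1e-10 1 in DE. The WT PP and A5-KO PP counts stayed within 1.5 times, but enrichment has a scale of its own in each list. Input RPM in member peaks were 55.6 (DE), 6218 (hILO), 2632 (WT PP) and 4475 (A5-KO PP) relative to nuclear coding genes, 68.4 (DE), 25.3 (PP), 8421 (hILO), 3748 (WT PP) and 6486 (A5-KO PP) relative to genes found in all 6 lists, and 37.4 (DE), 5554 (hILO), 1781 (WT PP) and 4525 (A5-KO PP) at p below 1e-05. Per kb of peak it was 119 (DE), 398 (PP), 409 (hILO), 222 (WT PP) and 372 (A5-KO PP). Without the 2 deepest peaks of each list it was 2.70 (DE), 2470 (hILO), 1057 (WT PP) and 261 (A5-KO PP), so that A5-KO PP fell below WT PP. The log2 ratio of A5-KO PP to WT PP was −0.23 over shared peaks, −2.28 without FGG, −0.71 without FGG and TTR and −0.064 with IP reads, against 1.25 without TTR and 0.79 relative to genes found in all lists. The log2 ratio of hILO to PP was 0.47 at the 1 shared peak and 8.37 relative to genes found in all lists. The median difference in log2 enrichment of shared peaks was −0.038 both with at least 50 and with at least 1 input read in both lists (9 and 13 pairs), and 0.13 from the deposited counts. With any overlap the CDS share was 86.5% and the 5′UTR share 13.5%, and without APOB the CDS share was 67.9%. GGAC was found in 54% of member peaks.

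In the batch 2 lists 9 member peaks had no input read, and their enrichment rests on IP reads alone.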
